A study of Mus musculus with 12 samples.

Results

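The mammalian mitochondrial ribosome was followed through its protein genes in 4 stages of mouse granulopoiesis. This family was chosen with earlier results of these data known. Its genes were taken by name: every array row annotated with exactly 1 symbol, where that symbol was Mrpl or Mrps followed by a number. There were 85 such rows for 77 genes out of the 19937 genes tested, 48 of them Mrpl and 29 Mrps, and where a gene had several rows the one with the highest mean was used. The study profiled mRNA beside microRNA across granulopoiesis, and the arrays served there to look for microRNA targets. Total RNA of granulocytes, myelocytes, promyelocytes and LSK cells (Lin- Sca1+ cKit+, the fraction of bone marrow that holds the stem cells), all sorted from untreated C57BL/6 mouse bone marrow, had been hybridised to Affymetrix Mouse Gene 1.0 ST arrays. Each of the 4 populations had 3 arrays, 12 in all. The labels call them biological replicates and give neither the age of the mice nor how many mice went into a sort.

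Mitochondria keep a small genome of their own that encodes core subunits of the respiratory chain and of the ATP synthase, together with the ribosomal RNAs and transfer RNAs needed to translate them. The ribosomal proteins are all encoded in the nucleus, made in the cytosol and imported, and the mitochondrial ribosome holds many proteins with no counterpart in bacteria beside those inherited from its bacterial ancestor. Mature granulocytes are known to rely mainly on glycolysis and to contain few mitochondria, whereas promyelocytes and myelocytes are the stages that fill the granules. By place in the ribosome 50 of the 77 genes encode proteins of the large subunit, among them Mrps18a and Mrps30 despite their names, and 26 encode proteins of the small subunit. The remaining gene, Mrps36, has since been assigned to the 2-oxoglutarate dehydrogenase complex and was kept because its symbol matched.

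Promoters are shown for 7 genes whose values, described further on, differ most plainly: Mrpl42, with the largest decrease; Mrpl33, which rose; Mrps18a, Mrps18b and Mrps18c, which descend from 1 bacterial protein; and Mrps11 with Mrpl46, which start head to head. These 7 were picked after their values had been seen. Each sequence is the RefSeq promoter in the mouse build GRCm38.p6, from 250 bases before to 50 bases after the transcription start, 5′ to 3′ on the gene's strand. Capitals mark every match, on either strand, to 4 short motifs: the NRF1 motif, which is GCGCA followed by its reverse complement, the ETS and GABP motif CCGGAAG, the E-box CACGTG and the YY1 motif AAGATGGC. No 2 matches overlapped in these sequences.
Mrpl42 (chr10:95501900-95502199, minus strand): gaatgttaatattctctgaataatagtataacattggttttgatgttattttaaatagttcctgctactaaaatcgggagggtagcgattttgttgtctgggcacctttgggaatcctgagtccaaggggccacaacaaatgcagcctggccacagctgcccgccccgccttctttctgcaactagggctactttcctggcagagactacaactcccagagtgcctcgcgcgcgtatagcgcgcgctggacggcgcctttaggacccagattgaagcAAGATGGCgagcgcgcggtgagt
Mrpl33 (chr5:31613701-31614000, plus strand): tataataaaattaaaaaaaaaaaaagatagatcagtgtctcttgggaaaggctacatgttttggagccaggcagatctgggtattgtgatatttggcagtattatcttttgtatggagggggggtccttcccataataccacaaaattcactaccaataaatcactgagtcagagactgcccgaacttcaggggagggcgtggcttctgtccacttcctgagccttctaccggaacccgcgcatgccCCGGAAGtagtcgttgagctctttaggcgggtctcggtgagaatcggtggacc
Mrps18a (chr17:46110754-46111053, plus strand): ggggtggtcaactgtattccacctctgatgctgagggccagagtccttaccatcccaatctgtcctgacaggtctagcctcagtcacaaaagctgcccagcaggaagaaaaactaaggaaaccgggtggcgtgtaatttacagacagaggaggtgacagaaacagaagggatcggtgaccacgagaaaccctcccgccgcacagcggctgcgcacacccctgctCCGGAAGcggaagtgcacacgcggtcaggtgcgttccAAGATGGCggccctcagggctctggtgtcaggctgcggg
Mrps18b (chr17:35916391-35916690, minus strand): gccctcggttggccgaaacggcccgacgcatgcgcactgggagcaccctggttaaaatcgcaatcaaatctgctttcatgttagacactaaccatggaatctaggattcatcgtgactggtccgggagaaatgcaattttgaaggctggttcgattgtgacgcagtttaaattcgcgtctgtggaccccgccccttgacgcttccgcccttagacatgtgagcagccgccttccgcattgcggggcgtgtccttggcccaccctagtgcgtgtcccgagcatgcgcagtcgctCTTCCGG
Mrps18c (chr5:100798509-100798808, plus strand): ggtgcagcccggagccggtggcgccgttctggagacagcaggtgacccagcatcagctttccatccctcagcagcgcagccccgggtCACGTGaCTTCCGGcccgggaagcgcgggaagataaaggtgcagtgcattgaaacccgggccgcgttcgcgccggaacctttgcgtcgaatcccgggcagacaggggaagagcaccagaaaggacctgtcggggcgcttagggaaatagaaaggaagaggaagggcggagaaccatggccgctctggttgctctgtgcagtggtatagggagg
Mrps11 (chr7:78782881-78783180, plus strand): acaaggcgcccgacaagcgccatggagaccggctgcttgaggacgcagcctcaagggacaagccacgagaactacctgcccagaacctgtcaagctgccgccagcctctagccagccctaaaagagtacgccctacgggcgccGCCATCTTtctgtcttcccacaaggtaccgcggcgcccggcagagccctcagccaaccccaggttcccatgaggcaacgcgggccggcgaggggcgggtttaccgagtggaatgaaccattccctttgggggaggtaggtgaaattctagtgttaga
Mrpl46 (chr7:78783040-78783339, minus strand): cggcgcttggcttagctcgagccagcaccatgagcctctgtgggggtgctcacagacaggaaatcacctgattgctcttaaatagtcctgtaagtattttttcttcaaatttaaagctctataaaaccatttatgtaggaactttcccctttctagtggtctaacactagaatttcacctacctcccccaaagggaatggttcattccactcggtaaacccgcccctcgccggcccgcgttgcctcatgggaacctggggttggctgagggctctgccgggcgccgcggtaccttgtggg
In these letters the Mrpl42 promoter held 1 YY1 match, 27 bases after the start, and that of Mrpl33 1 ETS match beginning 3 bases before it. The Mrps18a promoter held an ETS match 26 bases before and a YY1 match 11 bases after the start. That of Mrps18b held an ETS match 43 bases after the start, and that of Mrps18c an E-box 163 bases and an ETS match 156 bases before it. The starts of Mrps11 and Mrpl46 lay 42 bases apart, so that their windows shared 141 bases. The YY1 match of Mrps11 lay 107 bases before its start and outside the shared stretch, and the Mrpl46 window held none of the 4 motifs. That match lies downstream of the Mrpl46 start, past the 50 bases at which the Mrpl46 window ends, so its assignment to Mrps11 alone depends on the window.

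Promoters were found for 68 of the 77 genes, 74 promoters in all, and 9 genes had none in the table used. Among these 74 promoters, 25 (33.8%) held the ETS and GABP motif, against 12.1% of the promoters of all genes tested and 8.86% of all 32851 promoters of this length. The YY1 motif was present in 12 (16.2%), against 3.18% and 2.75%. The NRF1 motif was present in 3 (4.05%), against 1.45% and 0.971%, and the E-box in 7 (9.46%), against 8.25% and 7.15%. The 7 promoters with an E-box belonged to 5 of the 68 genes. A match is a description of the letters and not evidence of a bound factor.

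Values are the authors' log2 RMA levels, which are relative to each row's own probes, so that levels of different genes are not compared. As a mark of dim signal the 95th percentile of the olfactory and vomeronasal receptor genes was taken, 4.55 on the log2 scale. None of the 77 genes lay at or under it in all 4 stages, and 71 lay above it in all 4. Of the other 6, the means of Mrpl13, Mrpl22, Mrpl42, Mrps5 and Mrps27 reached the dim level in granulocytes and that of Mrps10 in myelocytes. No fold is given from such a mean, and the log2 difference is then one from dim signal.

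The marker lists followed the labels, each stage's own list being highest in that stage. The arrays of a stage were less alike in markers of other stages and lineages. The mean log2 level of 6 promyelocyte markers ranged over 7.75 to 10.3 on LSK arrays, against 10.9 to 11.5 on promyelocyte arrays. Elane, 1 of these markers, stood at 10.5, 11.5 and 8.66 on LSK arrays 1 to 3. The mean log2 level of 5 eosinophil markers ranged over 5.94 to 8.62 on promyelocyte arrays, against 4.85 to 5.00 on LSK arrays. Epx, the eosinophil peroxidase, stood at 9.81, 5.06 and 10.2 on promyelocyte arrays 1 to 3, and Prg2 and Prg3 were also lowest on array 2. The other markers of this list did not share that course, with Siglecf at 7.73, 7.73 and 7.17 and Ccr3, dim in promyelocytes, at 3.88, 4.16 and 4.37. The mean of 6 basophil and mast cell markers ranged over 5.04 to 5.92 in LSK cells, 7.50 to 9.51 in promyelocytes, 8.61 to 11.0 in myelocytes and 5.65 to 5.93 in granulocytes. The mean of 6 monocyte markers ranged over 6.11 to 7.52 in LSK cells, 8.84 to 9.65 in promyelocytes, 7.17 to 8.72 in myelocytes and 6.20 to 6.84 in granulocytes. Whether cells of these other lineages were present, and their part and that of the promyelocyte markers on LSK arrays in the results below, was not tested. In sorted bulk samples, fewer mRNA molecules per cell and a lower share of the total RNA cannot be told apart.

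Mitochondrial ribosomal protein genes declined after the promyelocyte stage, in which most had their highest mean, although few of the increases over LSK cells passed the test. The median of the 77 genes' log2 levels was 7.25, 7.17 and 7.08 on LSK arrays 1 to 3, 7.67, 7.59 and 7.33 on promyelocyte arrays, 6.68, 6.56 and 6.66 on myelocyte arrays and 6.02, 6.21 and 6.05 on granulocyte arrays. These medians did not overlap between any pair of stages. By stage means, 63 genes (81.8%) were highest in promyelocytes, against 23.1% of all genes, and 10 were highest in LSK cells, 2 in myelocytes and 2 in granulocytes. The lowest mean was in granulocytes for 64 genes, in myelocytes for 8, in LSK cells for 4 and in promyelocytes for 1. For 48 genes the order was promyelocytes, LSK cells, myelocytes, granulocytes. The lowest stage and this order were not counted over all genes. A difference among the 4 stages passed the moderated F test of limma (adjusted p under 0.05) for 67 of the 77 genes, against 54.0% of all genes, and the 10 that did not were Mrpl10, Mrpl14, Mrpl34, Mrpl43, Mrpl47, Mrps10, Mrps11, Mrps16, Mrps21 and Mrps24.

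**Figure D1:**
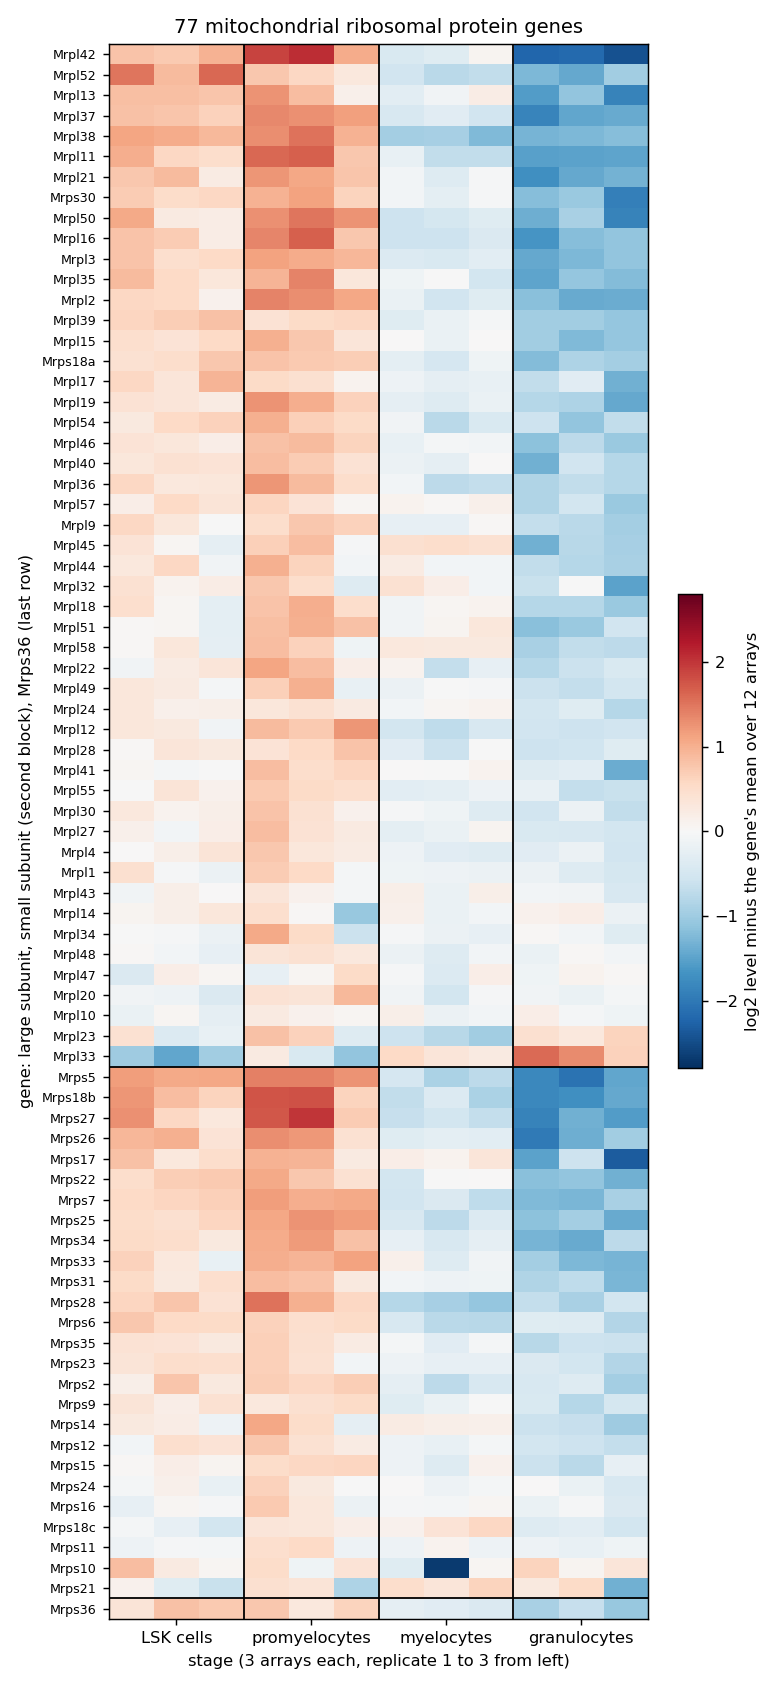
Log2 level of each of the 77 genes (rows, large subunit above, small subunit below, Mrps36 last) on each of the 12 arrays (columns, 3 for each stage), as the difference from the gene's own mean over the 12 arrays. Most rows are red in LSK cells and promyelocytes and blue in granulocytes, whereas Mrpl33, the last row of the large subunit, runs the other way and the single darkest cell of Mrps10 is myelocyte array 2.

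Most genes had a somewhat higher mean in promyelocytes than in LSK cells, none of them by as much as 2-fold with an adjusted p under 0.05 (Benjamini-Hochberg over all genes, limma). In promyelocytes against LSK cells, 0 genes were called higher and 0 lower at that 2-fold call, where the background over all genes was 1.61% higher and 2.75% lower. At an adjusted p under 0.05 without a minimum fold, 16 of the 77 genes rose (background 5.79%) and 1 fell (background 7.22%). An unadjusted p under 0.05 was reached by 31 of the 77 genes, a count that was not made over all genes. The median log2 difference was 0.34, against 0.04 over all genes, and 67 of the 77 differences were positive. The median was 0.23 without promyelocyte array 1 and 0.49 without promyelocyte array 3. The arrays of both stages did not overlap for 23 genes that were higher and 2 that were lower in promyelocytes (background 13.5% and 12.9%).

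The largest increase was that of Mrpl51, a large subunit protein found in mitochondria but not in bacteria, at 9.08, 9.23 and 9.06 in promyelocytes against 8.27, 8.30 and 7.97 in LSK cells, a log2 difference of 0.94 ± 0.18 (SE, adjusted p = 0.00201). That size depended on the row read, since a second row for Mrpl51 rose less, with means of 7.44 in promyelocytes and 7.01 in LSK cells. Mrpl2, the counterpart of a bacterial protein beside the peptidyl transferase centre, stood at 8.41, 8.34 and 8.13 against 7.62, 7.59 and 7.16 (0.84, adjusted p = 0.00239). Mrpl12, of the stalk that recruits translation factors, stood at 7.64, 7.48 and 7.98 against 7.05, 7.01 and 6.64 (0.80, adjusted p = 0.00318). In all of them the lowest promyelocyte array lay above the highest LSK array. The same held for Mrps33, at 8.79, 8.74 and 8.92 in promyelocytes against 8.42, 8.09 and 7.57 in LSK cells (0.79, adjusted p = 0.0139), and for Mrpl50, at 7.43, 7.64 and 7.40 against 7.22, 6.41 and 6.36 (0.83, adjusted p = 0.0317). Mrpl42, another protein of the large subunit, stood at 7.28, 7.45 and 6.42 against 6.17, 6.11 and 6.37 (0.83, adjusted p = 0.0218), with promyelocyte array 3 close to the LSK arrays. Leaving out single arrays carried some of these past 2-fold: Mrpl42 at 1.15 without promyelocyte array 3, Mrpl50 at 1.11 without LSK array 1, and Mrpl51 at 1.00 without LSK array 2. Mrpl33, whose difference of 0.72 had an adjusted p of 0.124 on all arrays, passed at 1.05 without promyelocyte array 3, and Mrps27 (0.76, adjusted p = 0.106) at 1.15 without that array and at 1.04 without LSK array 1.

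The 1 gene that fell was Mrpl52, a large subunit protein with no bacterial counterpart, at 6.87, 6.71 and 6.41 in promyelocytes against 7.61, 7.01 and 7.74 in LSK cells (-0.79 ± 0.19, adjusted p = 0.0128), and at -1.01 without LSK array 2. The next 5 in order of size did not pass the test. Mrpl14 differed by -0.37 (adjusted p = 0.445), with 6.89, 6.44 and 5.36 in promyelocytes against 6.49, 6.59 and 6.74 in LSK cells. Mrpl17 differed by -0.25 (adjusted p = 0.541), with 7.35, 7.26 and 6.91 against 7.38, 7.15 and 7.75. For both genes the arrays of the 2 stages overlapped and promyelocyte array 3 was the lowest. Mrpl39 differed by -0.19 (adjusted p = 0.414), at 9.20, 9.34 and 9.40 against 9.41, 9.49 and 9.62. Mrps10 differed by -0.13, at 5.45, 4.84 and 5.33 against 5.82, 5.20 and 5.02, and Mrps23 by -0.09, at 8.64, 8.39 and 7.88 against 8.32, 8.44 and 8.43.

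The myelocyte stage brought the broadest decline. In myelocytes against promyelocytes 29 of the 77 genes fell by at least 2-fold (background 9.87%) and 0 rose by as much (background 7.61%). At any fold 55 fell (background 19.1%) and 1 rose (background 15.6%). The median log2 difference was -0.78, against 0.01 over all genes, and 73 of the 77 differences were negative. The myelocyte arrays all lay under the promyelocyte arrays for 56 genes (background 22.5%) and all above them for 1 (background 21.5%). Of the 29 genes, 27 kept the 2-fold call with each array centred on its median, and 27 with centring on the 75th percentile. Quantile normalization over the tested genes kept 22 of them (median of the 77 genes -0.76), and cyclic loess normalization kept 21 (median -0.70).

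Mrpl38, a large subunit protein of mitochondria without a bacterial counterpart, had the largest decrease, at 5.81, 5.84 and 5.54 in myelocytes against 8.07, 8.28 and 7.73 in promyelocytes. The log2 difference was -2.30 ± 0.15 (adjusted p = 1.24e-08), which is 4.92-fold lower. Mrps5, at the path by which mRNA enters the small subunit, stood at 5.83, 5.42 and 5.57 against 7.70, 7.71 and 7.56 (-2.05 ± 0.16, adjusted p = 7.23e-08). The gap between stages was several times the spread within them for both genes, and Mrps5 was the more even across the promyelocyte arrays. Mrps27, a pentatricopeptide repeat protein of the small subunit, stood at 4.71, 4.85 and 4.69 in myelocytes against 7.09, 7.36 and 6.07 in promyelocytes (-2.09, adjusted p = 2.74e-05). Mrps28 stood at 5.08, 4.93 and 4.79 against 7.39, 6.87 and 6.46 (-1.97, adjusted p = 1.14e-06). Mrpl42 stood at 4.96, 5.05 and 5.47 against 7.28, 7.45 and 6.42 (-1.89, adjusted p = 5.63e-06). In these 3 genes promyelocyte array 3 was the lowest of its stage and still above every myelocyte array. Mrps18b completes the 6 largest decreases and is described with its paralogues.

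The other 23 genes past 2-fold were, in order of size, Mrpl11, Mrpl50, Mrpl16, Mrps25, Mrpl37, Mrps7, Mrpl2, Mrpl12, Mrpl3, Mrpl36, Mrps34, Mrps26, Mrpl19, Mrps6, Mrpl52, Mrpl21, Mrpl54, Mrps33, Mrpl23, Mrps2, Mrpl35, Mrps30 and Mrps18a. Of the 29 genes, 5 lost the 2-fold call, though not an adjusted p under 0.05, when 1 array was left out. Mrpl23 was at -0.91 without promyelocyte array 1, Mrps30 at -0.93 without promyelocyte array 2 and at -0.96 without myelocyte array 2, and Mrps18a at -0.95 without myelocyte array 2. Mrpl35 was at -0.86 without promyelocyte array 2 and at -0.96 without myelocyte array 3, and Mrpl54 at -0.99 without myelocyte array 2.

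Against the decline, Mrpl33 was the 1 gene that rose, at 8.23, 8.00 and 7.92 in myelocytes against 7.90, 7.24 and 6.56 in promyelocytes (0.81 ± 0.29, adjusted p = 0.0379). Its size depended on promyelocyte array 1, without which the difference was 1.15 and passed 2-fold. The next in order did not pass the test. Mrps21, the counterpart of a small bacterial protein of the small subunit, was at 9.37, 9.21 and 9.48 in myelocytes against 9.31, 9.22 and 7.99 in promyelocytes (0.51, adjusted p = 0.414). Mrpl14 was at 6.56, 6.22 and 6.35 against 6.89, 6.44 and 5.36 (0.14, adjusted p = 0.76). For both genes promyelocyte array 3 lay far under the other arrays of its stage. Mrpl45, a large subunit protein near the exit of the nascent chain, was at 7.38, 7.44 and 7.37 in myelocytes against 7.62, 7.80 and 6.90 in promyelocytes (-0.04, adjusted p = 0.921). Mrpl43 was at 6.74, 6.40 and 6.74 against 6.92, 6.69 and 6.53 (-0.09, adjusted p = 0.752). Mrps10 was at 4.61, 2.26 and 5.01 against 5.45, 4.84 and 5.33, a difference of -1.25 ± 0.49 (adjusted p = 0.0624) that rested on myelocyte array 2 and passed in a fit with a replicate block (adjusted p = 0.0205).

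Granulocytes were lower again. In granulocytes against myelocytes 15 of the 77 genes fell by at least 2-fold (background 5.96%) and 1 rose (background 2.35%). At any fold 41 fell (background 13.9%) and 1 rose (background 8.07%). The median log2 difference was -0.65, against 0.09 over all genes, and 65 of the 77 were negative. Arrays did not overlap for 49 genes that were lower (background 19.8%) and 3 that were higher (background 24.4%). This step depended on scaling: with each array centred on its 75th percentile, 5 genes fell and 3 rose by 2-fold, the median of the 77 was -0.37, that of all genes was 0.37, and over all genes 801 rose and 730 fell, beside 469 and 1188 on the deposited scale.

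Mrpl42 fell furthest, to 3.15, 3.21 and 2.94 in granulocytes, against 4.96, 5.05 and 5.47 in myelocytes (-2.06 ± 0.22, adjusted p = 8.35e-06), so that it ended under the dim level. Mrps17, the counterpart of a bacterial protein of the small subunit, was at 5.30, 6.21 and 4.47 against 6.97, 6.88 and 7.12 (-1.67 ± 0.32, adjusted p = 0.0012). Mrpl45 was at 5.60, 6.16 and 6.00 against 7.38, 7.44 and 7.37 (-1.47 ± 0.22, adjusted p = 0.000163), or 2.78-fold lower. Mrps17 and Mrpl45 were among the genes that had not passed the test in the step before. Mrpl13 was at 4.42, 4.88 and 4.09 in granulocytes against 5.69, 5.87 and 6.18 in myelocytes (-1.45, adjusted p = 0.000448). Mrpl21 was at 4.43, 4.71 and 4.83 against 6.05, 5.78 and 6.10 (-1.33, adjusted p = 8.82e-05). Mrps30 was at 5.00, 5.16 and 4.28 against 6.13, 5.92 and 6.16 (-1.26, adjusted p = 0.000282), and at -0.99 without granulocyte array 3. All 6 had granulocyte arrays under every myelocyte array.

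The other 9 genes past 2-fold were Mrps26, Mrpl37, Mrps5, Mrps33, Mrpl58, Mrpl15, Mrps22, Mrpl35 and Mrpl51. Of the 15 genes, 9 lost the 2-fold call with some 1 array left out and kept an adjusted p under 0.05: Mrps30 as above, Mrps5, Mrps33, Mrpl51, Mrpl35, Mrps22, Mrps26, Mrpl58 and Mrpl15. Mrps5 was at -0.97 without myelocyte array 1 and at -0.94 without granulocyte array 2, and Mrps33 at -0.94 without myelocyte array 1. Mrpl51 was at -0.91, -0.88 and -0.95 without myelocyte array 3, granulocyte array 1 and granulocyte array 2. Mrpl35 was at -0.99, -0.94 and -0.93 without myelocyte array 1, myelocyte array 2 and granulocyte array 1, and Mrps22 at -0.96, -0.95 and -0.96 without myelocyte array 2, myelocyte array 3 and granulocyte array 3. Mrps26 was at -0.87 and Mrpl58 at -0.99 without granulocyte array 1, and Mrpl15 at -0.98 without granulocyte array 2. Both late steps took 8 genes past 2-fold: Mrpl21, Mrpl35, Mrpl37, Mrpl42, Mrps5, Mrps26, Mrps30 and Mrps33. At any fold 33 genes fell in both steps, 21 in the myelocyte step without a call in the granulocyte step, and 8 in the granulocyte step alone. The steps share the myelocyte arrays, and whether their changes differ was not tested. The shares of all genes with such joint calls were not computed, so these counts have no background beside them.

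Mrpl23, which sits at the exit of the peptide tunnel in the large subunit, was the 1 gene that rose in granulocytes, at 9.04, 8.90 and 9.21 against 8.02, 7.82 and 7.63 in myelocytes. The log2 difference was 1.23 ± 0.27 (adjusted p = 0.00321), which is 2.34-fold higher. It had fallen by 1.14 in the step before, and its granulocyte arrays lay within the range of the promyelocyte arrays (9.42, 9.23 and 8.23), with LSK arrays at 9.02, 8.20 and 8.39. A second row for Mrpl23 had stage means of 8.21, 8.33, 7.50 and 8.62 in LSK cells, promyelocytes, myelocytes and granulocytes, and the same course. The reference gene table lists a pseudogene, Mrpl23-ps1, whose transcripts the rows may share.

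Of the further genes with a higher mean in granulocytes, none passed the test. Mrps10 was at 5.57, 5.02 and 5.30 against 4.61, 2.26 and 5.01 (1.33 ± 0.49, adjusted p = 0.0662). It passed without myelocyte array 1 (1.66) or array 3 (1.86), settings in which the low array 2 weighs more, and with the replicate block (adjusted p = 0.0229). Mrpl33 was at 9.25, 8.99 and 8.32 against 8.23, 8.00 and 7.92 (0.80, adjusted p = 0.0601), and passed at 1.07 without granulocyte array 3. Mrps28 was at 5.20, 4.96 and 5.34 in granulocytes against 5.08, 4.93 and 4.79 in myelocytes (0.24). Mrps6 was at 5.76, 5.74 and 5.27 against 5.65, 5.34 and 5.31 (0.15), and Mrpl48 at 7.21, 7.42 and 7.30 against 7.21, 7.03 and 7.30 (0.13). Mrps28 and Mrps6 had completed their decline in myelocytes, where both had fallen by more than 2-fold.

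**Figure D2:**
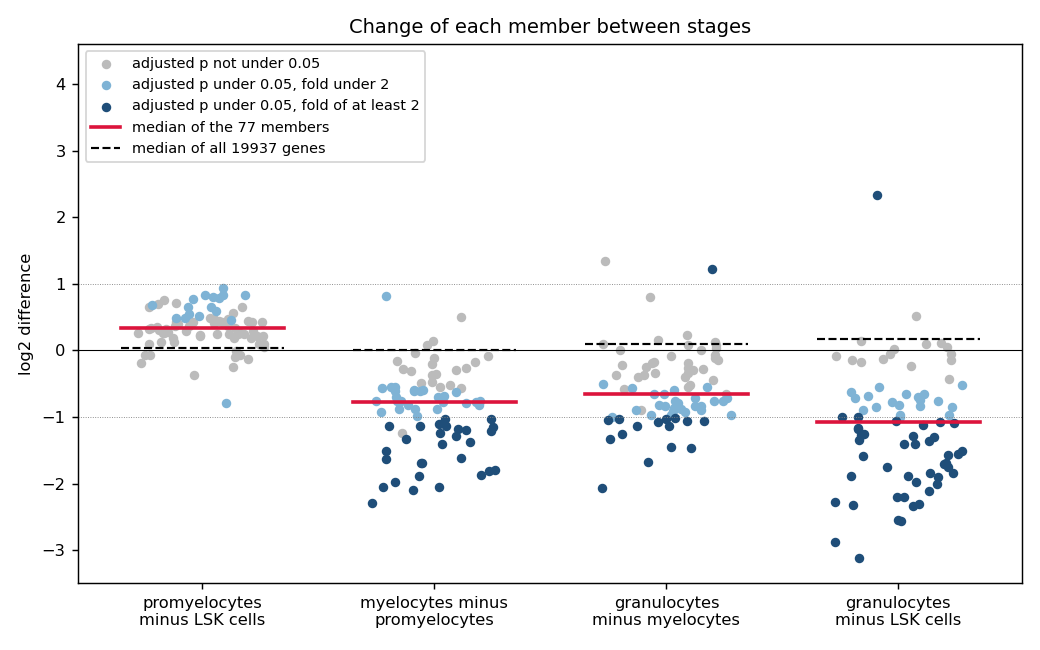
Log2 difference of each of the 77 genes (points) in the 3 consecutive steps and between granulocytes and LSK cells, coloured by the limma test, with the median of the 77 genes (red line) and of all 19937 genes (dashed). The medians of the 77 genes are 0.34, -0.78, -0.65 and -1.07, and the point far above the rest at the right is Mrpl33 at 2.33.

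Over the whole course, most of these mRNAs had lower levels on granulocyte arrays than on LSK arrays. In granulocytes against LSK cells 42 of the 77 genes fell by at least 2-fold (background 16.5%) and 1 rose (background 9.59%). At any fold 61 fell (background 25.3%) and 1 rose (background 26.6%). The median log2 difference was -1.07, against 0.17 over all genes, the middle part of the genes lay between -1.75 and -0.65 (quartiles), and 70 of 77 were negative. All granulocyte arrays lay under all LSK arrays for 62 genes (background 26.8%) and above them for 1 (background 35.2%). Centring each array on its 75th percentile left 30 genes lower and 1 higher and a median of -0.74, beside a median of 0.51 over all genes.

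The deepest declines belonged to Mrpl42 and Mrps5. Mrpl42 stood at 3.15, 3.21 and 2.94 in granulocytes against 6.17, 6.11 and 6.37 in LSK cells (-3.12 ± 0.22, adjusted p = 1.1e-08). Mrps5 stood at 4.49, 4.24 and 4.85 against 7.47, 7.35 and 7.38 (-2.88 ± 0.16, adjusted p = 7.37e-10), and a second row for it differed by -2.10. Mrpl52 was 5.84-fold lower in granulocytes, at 4.87, 4.69 and 5.16 against 7.61, 7.01 and 7.74 in LSK cells (adjusted p = 2.01e-08). The 3 genes took different courses: Mrpl42 passed through a promyelocyte peak, Mrps5 was near level until the promyelocyte stage, and Mrpl52 had a lower mean at each successive stage, the last of them short of the threshold (-0.56, adjusted p = 0.053). Mrpl38 was 4.84-fold lower in granulocytes, at 5.45, 5.51 and 5.56 against 7.87, 7.80 and 7.68 in LSK cells, almost all of it by the myelocyte stage, since its granulocyte and myelocyte means differed by -0.22 (adjusted p = 0.336).

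The remaining genes that fell by at least 2-fold in granulocytes were Mrps18b, Mrpl13, Mrpl37, Mrps27, Mrps26, Mrpl11, Mrpl21, Mrps17, Mrps30, Mrpl50, Mrpl16, Mrpl3, Mrpl35, Mrps22, Mrps7, Mrpl2, Mrpl39, Mrps25, Mrps34, Mrpl15, Mrps18a, Mrps36, Mrps33, Mrpl17, Mrps31, Mrpl19, Mrps28, Mrpl54, Mrpl46, Mrpl40, Mrpl36, Mrpl57, Mrps6, Mrpl9, Mrpl45, Mrpl44, Mrps35 and Mrps23. Another 19 fell by less than 2-fold, and 15 passed no threshold in either direction. Of the 42, 6 lost the 2-fold call with 1 array left out and kept an adjusted p under 0.05. Mrpl45 was at -0.91 without LSK array 1 or without granulocyte array 1, Mrps23 at -0.98 without LSK array 2, at -0.99 without LSK array 3 and at -0.88 without granulocyte array 3, and Mrps6 at -0.95 without granulocyte array 3. Mrps35 was at -0.98, -0.99 and -0.94 without LSK array 1, LSK array 2 and granulocyte array 1, Mrpl9 at -0.95 without LSK array 1 and Mrpl44 at -0.90 without LSK array 2.

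Mrpl33, the counterpart of a small bacterial protein of the large subunit, ran against most of the other genes. Its levels were 6.67, 6.20 and 6.68 in LSK cells, 7.90, 7.24 and 6.56 in promyelocytes, 8.23, 8.00 and 7.92 in myelocytes and 9.25, 8.99 and 8.32 in granulocytes. Every granulocyte array lay above every myelocyte array, and every myelocyte array above every promyelocyte array, while promyelocyte array 3 fell among the LSK arrays. In granulocytes it was 5.03-fold higher than in LSK cells (2.33 ± 0.29 on the log2 scale, adjusted p = 4.27e-06).

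**Figure D3:**
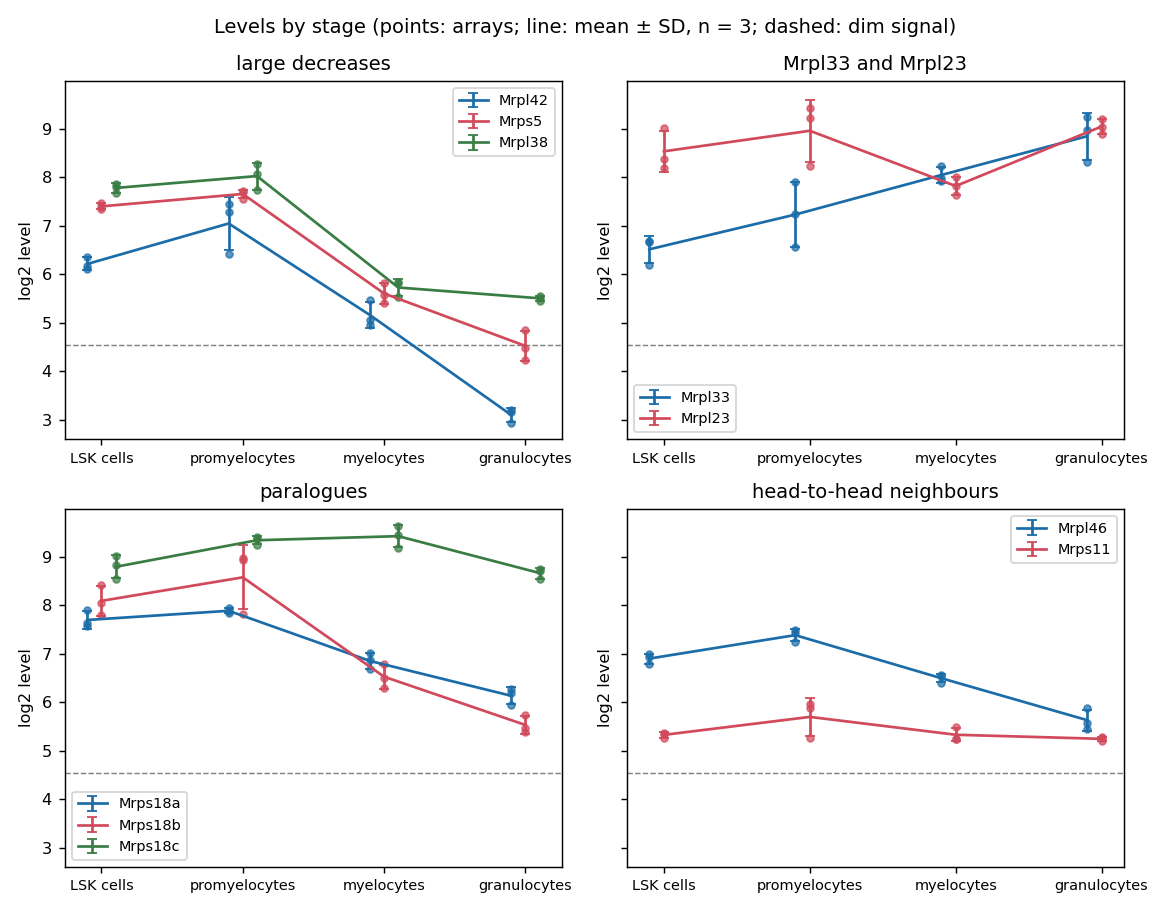
Log2 level of 10 genes by stage, with a point for each array and a line through the means ± SD (n = 3), and the dim level of 4.55 dashed. Mrpl42, Mrps5 and Mrpl38 decline after promyelocytes, Mrpl33 increases at each stage, Mrpl23 dips in myelocytes, Mrps18c is higher in promyelocytes and myelocytes and near its LSK level in granulocytes while Mrps18a and Mrps18b decline, and Mrps11 keeps between 5.19 and 5.96 while Mrpl46 declines.

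The 3 homologues of bacterial ribosomal protein S18 took different courses. Mrps18c takes the place that S18 has in the bacterial small subunit, Mrps18b is a second homologue in the small subunit, and Mrps18a lies in the large subunit. Mrps18b stood at 8.41, 8.05 and 7.81 in LSK cells, 8.94, 8.97 and 7.81 in promyelocytes, 6.49, 6.79 and 6.29 in myelocytes and 5.38, 5.46 and 5.74 in granulocytes. It was 4.14-fold lower in myelocytes than in promyelocytes (-2.05 ± 0.26, adjusted p = 1.18e-05) and 5.89-fold lower in granulocytes than in LSK cells (-2.56 ± 0.26, adjusted p = 5.48e-07). Granulocytes differed from myelocytes by -0.99, just short of 2-fold, and passed at -1.01, -1.11 and -1.10 without myelocyte array 1, myelocyte array 3 and granulocyte array 3.

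Mrps18a stood at 7.56, 7.63 and 7.89 in LSK cells, 7.93, 7.88 and 7.83 in promyelocytes, 6.86, 6.68 and 7.01 in myelocytes and 5.93, 6.27 and 6.18 in granulocytes. It was 2.96-fold lower in granulocytes than in LSK cells (-1.56 ± 0.15, adjusted p = 2.05e-07). Mrps18c stood at 9.01, 8.83 and 8.53, then 9.40, 9.37 and 9.24, then 9.18, 9.44 and 9.64, and in granulocytes at 8.70, 8.75 and 8.53. It rose in promyelocytes (0.55 ± 0.16, adjusted p = 0.0308), differed by 0.08 in myelocytes (adjusted p = 0.757), and fell in granulocytes against myelocytes (-0.76, adjusted p = 0.00217), where it differed from LSK cells by -0.13 (adjusted p = 0.504). Within each array the log2 level of Mrps18c minus that of Mrps18b was 3.32, 3.29 and 2.79 in granulocytes, against 0.60, 0.78 and 0.73 in LSK cells. This gap widened by 2.43 with no overlap, and the exact two-sided permutation p was 0.1, the smallest that 3 arrays against 3 allow. The pair was chosen after these values had been seen, so this p is no support for an unequal change.

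Mrps11 and Mrpl46, the head-to-head neighbours on chromosome 7, also parted. Mrpl46, a large subunit protein of mitochondria alone, stood at 6.98, 6.92 and 6.78 in LSK cells, 7.43, 7.48 and 7.23 in promyelocytes, 6.39, 6.56 and 6.53 in myelocytes and 5.44, 5.87 and 5.57 in granulocytes. It passed the test at every step, with log2 differences of 0.48 (adjusted p = 0.0364), -0.89 (adjusted p = 0.000121) and -0.86 (adjusted p = 0.000359). Mrps11 stood at 5.26, 5.37 and 5.34, then 5.87, 5.96 and 5.25, then 5.25, 5.49 and 5.25, and in granulocytes at 5.26, 5.19 and 5.28, and no step passed (adjusted p = 0.184, 0.115 and 0.759). The level of Mrps11 minus that of Mrpl46 was -0.19, -0.68 and -0.29 in granulocytes, against -1.72, -1.56 and -1.44 in LSK cells, a change of 1.19 without overlap (exact two-sided permutation p = 0.1, the smallest possible). Mrps11 lay near the dim level. This pair and the S18 homologues were the 2 pairs compared in this way. Both were chosen after their values had been seen, so neither p is support for an unequal change.

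The smallest ranges of stage means above the dim level belonged to Mrpl47 (0.21), Mrpl10 (0.27), Mrpl43 (0.34), Mrpl14 (0.37) and Mrps11 (0.45). Mrpl10, of the base of the stalk, was the best measured of them, at 7.86, 8.11 and 7.80 in LSK cells, 8.31, 8.17 and 8.10 in promyelocytes, 8.22, 7.89 and 7.98 in myelocytes and 8.24, 8.01 and 7.94 in granulocytes. Its stages overlapped throughout, and granulocytes differed from LSK cells by 0.14 ± 0.15 (adjusted p = 0.427). Mrpl43 stood at 6.50, 6.49 and 6.14 in granulocytes against 6.48, 6.75 and 6.60 in LSK cells, and Mrpl14 at 6.54, 6.60 and 6.25 against 6.49, 6.59 and 6.74. Mrpl47 depended on the row read. The row used stood at 5.15, 5.36 and 5.32 in granulocytes against 4.87, 5.47 and 5.32 in LSK cells, whereas the other row for the gene had means of 3.46 in granulocytes and 5.29 in LSK cells, a difference of -1.83.

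Among the 8 genes with several rows, the rows of Mrpl27, Mrpl51, Mrps5 and Mrps36 ran the same way, with granulocyte minus LSK differences of -0.55 and -0.44, -0.85 and -1.01, -2.88 and -2.10, and -1.51 and -1.27. The second row of Mrpl41 differed by -0.17 where the row used differed by -0.69, and the second row of Mrps33 was dim in every stage. The reference table lists 6 pseudogenes of these genes, of Mrpl23, Mrpl27, Mrpl48 and Mrps36, with which probes may be shared.

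Both subunits had like counts. In granulocytes against LSK cells 26 of 50 large subunit genes and 15 of 26 small subunit genes fell by at least 2-fold, with median differences of -1.06 and -1.06. In myelocytes against promyelocytes the counts were 18 of 50 and 11 of 26, with medians of -0.78 and -0.84. Split by ancestry, 22 of 28 proteins found in mitochondria alone fell by 2-fold in granulocytes against LSK cells (median -1.33), beside 19 of 48 with a bacterial counterpart (median -0.85). The myelocyte step gave medians of -0.84 and -0.76 for these groups, and the granulocyte step -0.83 and -0.40. The difference between the groups was not tested, since the genes of a group are not replicates.

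By promoter letters, the myelocyte step had a median of -1.07 over 12 genes with a YY1 match and of -0.76 over 56 without, and of -0.63 over 25 genes with an ETS match and -0.80 over 43 without. With an E-box match the median was -1.37 over 5 genes and without it -0.76 over 63, and with an NRF1 match -0.70 over 3 genes and without it -0.78 over 65. These are descriptions over few genes. Mrpl42 and Mrps18a, which fell, and Mrps11, which did not pass, all held a YY1 match, that of Mrps11 also lying past the window end of Mrpl46, which fell. Mrpl33 and Mrps18b, which moved in opposite directions in the myelocyte step, both held an ETS match.

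Genes that serve the mitochondrial ribosome also declined in myelocytes, where over all genes 9.87% fell and 7.61% rose by 2-fold. Of 4 ribosome proteins that carry other symbols, 3 fell by at least 2-fold in myelocytes against promyelocytes, among them Ptcd3 (-1.64, adjusted p = 8.62e-07) and Gadd45gip1 (-1.53, adjusted p = 3.55e-06). Of 14 translation factors 8 fell and 0 rose (median -1.13). Lrpprc, which with Slirp stabilises mitochondrial mRNAs, averaged 6.36 in myelocytes against 8.78 in promyelocytes (-2.42, adjusted p = 1.1e-07), and Tufm, the elongation factor that brings transfer RNAs to the ribosome, 7.04 against 8.98 (-1.94, adjusted p = 4.42e-08). Of 16 mitochondrial aminoacyl-tRNA synthetases 8 fell and 0 rose (median -1.03), Tars2 by 1.72 (adjusted p = 4.1e-07). Nars2 averaged 4.36 in myelocytes, under the dim level, against 6.57 in promyelocytes.

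Assembly factors and rRNA-modifying enzymes were mixed, with 7 of 25 falling by 2-fold in myelocytes, 1 rising and a median of -0.53. Fastkd2, an RNA-binding protein needed for the large subunit, averaged 4.32 in myelocytes, under the dim level, against 7.10 in promyelocytes, and Tfb1m, which methylates the rRNA of the small subunit, 4.90 against 6.85 (-1.95, adjusted p = 1.24e-06). Rbfa, which helps the small subunit mature, rose to 8.59 in myelocytes, against 7.52 in promyelocytes (1.07, adjusted p = 1.28e-05). Of 10 genes for transcription and replication of the mitochondrial genome 4 fell (median -0.79). Top1mt averaged 4.57 in myelocytes against 6.97 in promyelocytes (-2.41, adjusted p = 1.43e-08), and the helicase Twnk 5.35 against 6.91 (-1.56, adjusted p = 3.71e-06). Tfam, which packages the genome and starts its transcription, fell further in granulocytes, where it averaged 4.10, under the dim level, against 5.71 in myelocytes. In that step, where 5.96% of all genes fell by 2-fold, Yars2, the tyrosyl-tRNA synthetase, averaged 4.68 in granulocytes against 6.58 in myelocytes (-1.90, adjusted p = 3.49e-05). In promyelocytes against LSK cells, Polg2, the accessory subunit of the mitochondrial DNA polymerase, was the 1 gene of these 5 lists past 2-fold, at 5.63 against 6.63 (adjusted p = 0.0344).

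The median decrease in myelocytes was larger for the cytosolic ribosome and smaller for the list of respiratory chain symbols. Of 52 cytosolic ribosomal protein genes 41 fell by 2-fold in myelocytes against promyelocytes (median -1.24) and 47 in granulocytes against LSK cells (median -2.02), but 0 passed 2-fold in promyelocytes against LSK cells, where their median was -0.03 beside 0.34 for the 77 mitochondrial ribosomal genes. The respiratory chain list was taken by symbol, as the 93 genes starting Nduf, Cox4 to Cox8, Uqcr, Atp5 or Sdh. This rule takes in ATP synthase genes and does not separate subunits from assembly factors. Of these 93 genes 3 rose in promyelocytes (median 0.35), 17 fell in myelocytes (median -0.45) and 11 in granulocytes against myelocytes (median -0.43). In granulocytes against LSK cells 28 of them fell and 1 rose (median -0.44). Over all genes these 2-fold calls took 1.61% (higher in promyelocytes), 9.87% (lower in myelocytes), 5.96% (lower in granulocytes against myelocytes), and 16.5% lower and 9.59% higher in granulocytes against LSK cells. These medians were set side by side without a test between lists, since genes are not replicates.

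**Figure D4:**
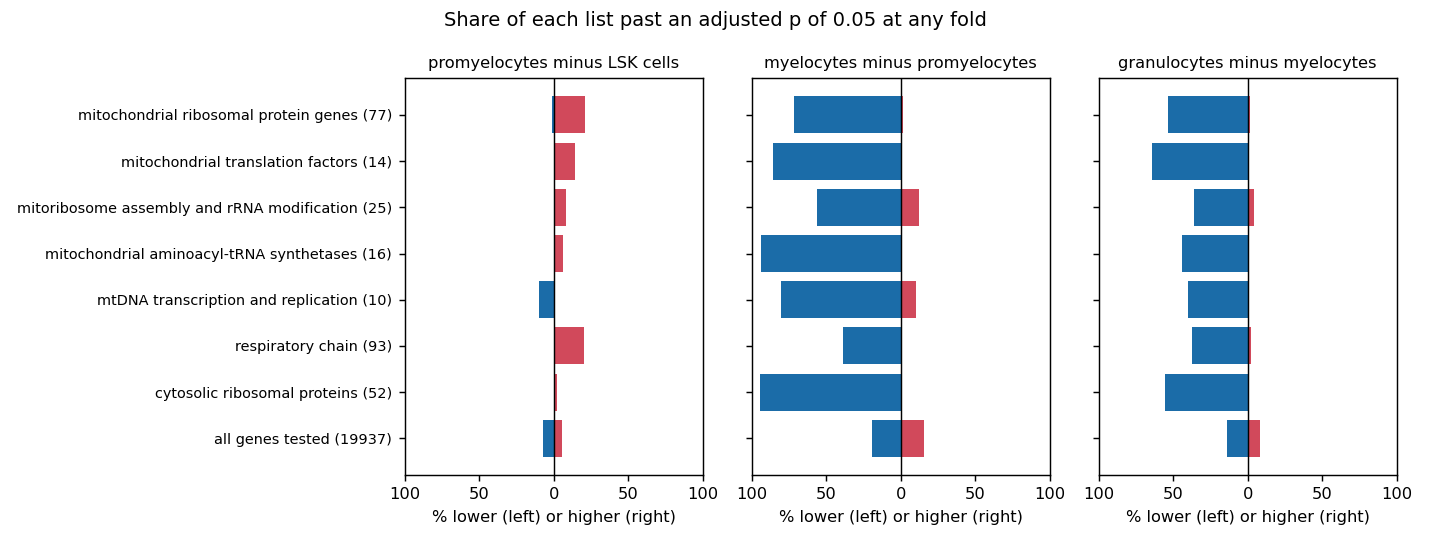
Percent of each gene list with an adjusted p under 0.05 at any fold, lower (blue, to the left) or higher (red, to the right), in the 3 consecutive steps, with the number of genes of each list in parentheses and all genes tested at the bottom. Every list has its longest blue bar in the myelocyte step, where 55 of the 77 mitochondrial ribosomal genes fell, and only the first step shows 16 of them higher.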

How the data were processed

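The deposited values are log2 levels that the authors made from Affymetrix Mouse Gene 1.0 ST arrays with justRMA (background correction, quantile normalization and median polish), of a version not stated in the sources used. They were used as deposited. Of 34760 rows, 21640 had 1 gene symbol in the platform's annotation, 1321 had several and 11799 none. Rows with 1 symbol were kept, 1 per gene by the highest mean, which left 19937 genes. A row whose annotation named Mrpl53 beside another gene was not used. Array medians were 4.96 to 5.12 and no 2 arrays were identical. Precision is limited by the number of arrays, with a median SD of 0.21 within groups.

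Testing used limma 3.58.1 (R 4.3.3), fitting the means of the 4 groups to all 12 arrays at once, with 8 residual and 7.02 prior degrees of freedom, and p-values were Benjamini-Hochberg adjusted over all genes. Genes were called at an adjusted p under 0.05, with a fold of at least 2 where 2-fold is written. The p-values measure the spread between these arrays, which may be partly technical. The script was tested on simulated data.

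The members and lists were chosen with earlier results of these data known. Array values are given for the 6 largest decreases and increases of each step, for members that passed against the majority in the myelocyte step, for the 5 smallest ranges above the dim level and for the Mrps18 genes. Genes named from the context lists are among the 2 largest called changes of a list per direction and step, and not all such genes are named. The promoters and Mrpl46 were chosen after values were seen. Labels number the replicates 1 to 3. Deviations of same-numbered arrays correlated over 0.1 in every pair for myelocytes with promyelocytes (0.118 to 0.196) and for no other 2 groups. Alternatives covered scaling, dim genes, the row per gene, the threshold, the spread model, the arrays in the fit, the replicate block and leaving out each array.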

Additional observations from a re-analysis of the deposited data

How the results depend on the processing

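The number of arrays and the dim level limit what can be called. With the replicate block 2 genes rose by 2-fold in granulocytes against myelocytes, in place of 1, the added gene being Mrps10 (1.33, adjusted p = 0.0229), and it called Mrps10 in the myelocyte step, while it changed no other call among the named genes. An unadjusted p gave 2 there as well. Without a minimum fold 16 genes rose and 1 fell in promyelocytes against LSK cells, 1 rose and 55 fell in myelocytes against promyelocytes, and 41 fell in granulocytes against myelocytes. Median centring gave 1 gene higher in promyelocytes (Mrpl51, 1.04) and a granulocyte minus LSK median of -0.88, with all genes at 0.36. Centring on the 75th percentile gave 3 higher, 5 lower and a median of -0.37 in granulocytes against myelocytes, and -0.74 in granulocytes against LSK cells. Quantile normalization over the tested genes gave medians of -0.48 and -0.86 for those comparisons. Cyclic loess gave 9 genes lower in the granulocyte step (of all genes 1048) and a granulocyte minus LSK median of -0.95. Over all genes, centring on the 75th percentile called 2897 higher and 2521 lower in granulocytes against LSK cells, beside 1912 and 3293, and median centring called 427 and 446 in promyelocytes against LSK cells, beside 321 and 549. Reading the Mrpl47 row with the largest standard deviation turned its sign, to -1.01 in granulocytes against myelocytes and -1.83 against LSK cells. With the mean of a gene's rows, Mrps33 lost its 2-fold call in the myelocyte step (-0.75), the granulocyte step (-0.51) and granulocytes against LSK cells (-0.76). So did Mrpl23 in the myelocyte step (-0.99), and Mrpl51 (-0.99) and Mrps5 (-0.98) in the granulocyte step. A mean over rows takes in the second row, which for Mrps33 differed by -0.10 in granulocytes against LSK cells, beside -1.41 for the row used. Why rows of a gene differ, and the cause of the other changes, was not tested.

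Leaving out each array in turn gave 0 to 3 genes higher, 0 to 1 lower and a median of 0.23 to 0.49 in promyelocytes against LSK cells. Of all genes, 231 to 403 were then higher and 480 to 627 lower. In myelocytes against promyelocytes it gave 0 to 1 higher and 27 to 32 lower (of all genes 1442 to 1602 and 1808 to 2226), with medians of -0.90 to -0.74. In granulocytes against myelocytes it gave 1 to 2 higher and 13 to 16 lower (of all genes 431 to 517 and 1095 to 1248), with medians of -0.70 to -0.55. In granulocytes against LSK cells it gave 1 higher, 40 to 45 lower and -1.17 to -1.03, and 65 to 71 genes differed among the stages. Over all alternatives of the named genes, 58 values crossed to a call, 58 lost one, 2 turned sign with a call, and 3050 kept their side of the threshold, of which 65, uncalled in both settings, turned sign.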
